A study of Danio rerio with 19 samples.

Results

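Afidopyropen at its low dose was compared with the control medium across all genes in whole zebrafish larvae. The comparison uses 7 of the 19 libraries of the series, chosen by their labels: 3 of larvae exposed to afidopyropen at 100 ng/L (Afid low, replicates 1, 2 and 4) and 4 of larvae in the control medium, which the labels name ERM (Control, replicates 1 to 4). The other libraries come from larvae given afidopyropen at 1 µg/L (Afid high) or atorvastatin (AVS) at either dose. The labels give wild type or mutant status, strain, age, exposure time and solvent for none of the groups, and do not say whether a replicate is a separate tank, clutch or pool of larvae. Any p-value given here therefore rests on the spread among 7 libraries, part of which may be technical.

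Afidopyropen is an insecticide used against aphids and other sap-feeding insects. In insects it acts on a TRPV channel, a calcium-permeable cation channel, in stretch-sensing neurons of the antennae and legs, and the animals lose coordination and stop feeding. Zebrafish carry TRPV genes of their own as well as the related TRPA1 channels. A whole-larva library sums the RNA of all organs, so fewer cells of a type and less RNA per cell cannot be told apart.

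The libraries held 10.2, 11.9 and 12.3 M reads in genes in Afid low, and 15.04, 15.1, 13.2 and 18.6 M in Control. Depth thus did not overlap between the groups, and its part in the results was not tested. Genes of lens, muscle, skin, gut, liver, nervous system and blood were all detected in both groups. The summed level of 51 lens genes, for example, was 10760 to 13630 counts per M (CPM) in Afid low and 7530 to 18120 CPM in Control. Control replicate 2 stood apart on the first principal component of the 7 libraries (36.9% of the variance), at −91.2 against 1.37 to 25.8 for the others. Control replicate 4 lay at 54.7 on the second (19.99%), against −34.7 to 18.0 for the others. No pair of libraries within a group was a duplicate, with a chi-square per degree of freedom of at least 7.43 over 9 pairs.

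By DESeq2, the tool the authors used, 7 genes rose and 8 fell in Afid low at an adjusted p under 0.05 (0.0347% and 0.0396% of 20198 genes with an adjusted p), the same 15 genes as in the authors' deposited table. The genes that fell included 3 of the cytosolic ribosome and 2 of respiratory complex I. Those that rose included an entry of slow muscle myosin, a lipid flippase and an entry that RefSeq, but not the authors' table, lists as ribosomal RNA. The quasi-likelihood test of edgeR passed 0 of 19399 genes, and its smallest adjusted p-value was 0.338. It gave 697 genes higher in Afid low (3.59%) and 671 lower (3.46%) at an unadjusted p under 0.05, or 1368 in both directions (7.05%). DESeq2, fitted to 25686 genes with no filter on read counts beforehand, gave 1555 in both directions. Its count and that of edgeR thus do not share a denominator. Limma-voom also called 0 genes at the adjusted threshold. Levels below are TMM-scaled CPM. Each fold change is the log2 ratio of Afid low over Control fitted by edgeR, with its standard error (SE).

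NDUFA13, an accessory subunit of respiratory complex I, the first proton-pumping enzyme of the mitochondrial respiratory chain, stood at 7.53, 6.201 and 5.58 CPM in Afid low, against 13.6, 19.4, 18.98 and 26.6 CPM in Control. It averaged 6.44 ± 0.995 CPM in Afid low (SD, n = 3) and 19.7 ± 5.34 CPM in Control (SD, n = 4). Every Afid low library lay below every Control library, and the log2 fold change was −1.62 (SE 0.25; DESeq2 adjusted p = 4.11e-05). The entry is 263 bases long and sits on an unplaced scaffold of the authors' build, which is not named in the sources used here. NDUFB1 (ENSDARG00000087456; chromosome 20, 50048836 to 50049099), a second accessory subunit of complex I, stood at 13.3, 7.95 and 8.15 CPM in Afid low and at 16.6, 30.6, 18.4 and 47.5 CPM in Control, a log2 fold change of −1.54 (SE 0.36). Its groups did not overlap either, but Control replicate 1 lay close to Afid low replicate 1. At 177 bases the NDUFB1 entry is among the shortest gene models of the table.

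The ribosomal protein rps29 (ENSDARG00000041232; chromosome 20, 54079341 to 54085949), a component of the small subunit, was at 224, 132 and 110 CPM in Afid low, against 271, 526, 332 and 623 CPM in Control (log2 fold change −1.50, SE 0.32). Its mean in the authors' FPKM, which divide by gene length, was 436 FPKM in Afid low and 1235 FPKM in Control. The large-subunit protein rpl37 (chromosome 21, 5194602 to 5205653) was at 546, 349 and 312 CPM in Afid low and at 630, 998, 784 and 1462 CPM in Control (log2 fold change −1.27, SE 0.30). A further entry with the same symbol, at 5.01 to 8.81 CPM in Afid low and 8.14 to 12.8 CPM in Control, had a log2 fold change of −0.56 with overlapping groups. The small-subunit protein rps21 (chromosome 23, 9220436 to 9228578) was at 350, 268 and 239 CPM in Afid low and at 373, 712, 519 and 759 CPM in Control, a log2 fold change of −1.05 (SE 0.26). In all 3 of these genes Afid low replicate 1 was the highest of its group and Control replicate 1 the lowest of its own, and the gap between these libraries was small. How the authors' counting treated reads that match several genes is not given in the sources used here. Nor is the strand option of the counting, so reads of overlapping and antisense genes cannot be told apart.

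The other genes that fell by DESeq2 were fkbp3, si:dkey-239h2.3 and dre-mir-29b-1. Levels of fkbp3, a nuclear prolyl isomerase that binds the drug FK506, were 11.9, 6.44 and 10.9 CPM in Afid low and 15.6, 29.8, 20.6 and 23.8 CPM in Control (log2 fold change −1.20, SE 0.27). The locus si:dkey-239h2.3, listed as protein-coding in the authors' table and as a long non-coding RNA in RefSeq (GRCz12tu), was at 33.5, 24.4 and 23.6 CPM in Afid low and at 40.8, 70.2, 49.6 and 65.7 CPM in Control (log2 fold change −1.06, SE 0.22). The precursor entry of the microRNA mir-29b, dre-mir-29b-1, is 83 bases long and held 32, 22 and 39 reads in Afid low and 108, 123, 63 and 137 in Control (log2 fold change −1.48, SE 0.33). In a poly(A)-selected library such reads and those of a longer transcript over the same bases cannot be told apart. The groups did not overlap in any of these 3 genes.

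Among the genes that rose, zgc:158463 (ENSDARG00000089382; chromosome 5, 824709 to 825920) had the smallest p-value by DESeq2, and smyhc2 by edgeR. The level of zgc:158463 was 305, 256 and 404 CPM in Afid low against 124, 82.5, 90.5 and 161 CPM in Control (log2 fold change 1.49, SE 0.24; DESeq2 adjusted p = 4.11e-05). The authors' table lists it as protein-coding and RefSeq as ribosomal RNA. It averaged 321 ± 75.4 CPM in Afid low (SD, n = 3) and 114 ± 35.7 CPM in Control (SD, n = 4), and all Afid low libraries lay above all Control libraries. It lies in a cluster of 6 entries, to which BX537263.3 (log2 fold change 1.78, SE 0.44) belongs as well. The summed level of the cluster was 375, 287 and 466 CPM in Afid low and 135, 88.1, 94.8 and 199 CPM in Control. BX537263.3 was the only called gene of the 15 whose groups overlapped, at 24.6, 10.97 and 27.1 CPM in Afid low and 4.79, 4.09, 3.05 and 12.3 CPM in Control. Cytosolic ribosomal RNA has no poly(A) tail. The share of reads in entries that the authors' table marks as rRNA or mitochondrial rRNA was 0.161%, 0.183% and 0.198% in Afid low. In Control it was 0.163%, 0.186%, 0.161% and 0.170%, and the ranges overlap. That share leaves out zgc:158463 and BX537263.3, which are marked as protein-coding, so it does not measure their reads.

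An entry of smyhc2, a slow myosin heavy chain, rose to 11.1, 11.3 and 16.1 CPM in Afid low, against 3.98, 3.48, 5.56 and 3.38 CPM in Control (log2 fold change 1.65, SE 0.26; DESeq2 adjusted p = 2.21e-04). That entry is 555 bases long and sits on an unplaced scaffold. The symbol has 2 further entries of full length, 5896 and 5985 bases, with log2 fold changes of 0.20 and −0.57 and overlapping groups. The related slow myosin smyhc1 had 340, 326 and 400 CPM in Afid low and 328, 188, 373 and 292 CPM in Control (log2 fold change 0.27, SE 0.22). The call was thus on the short entry, and how reads of near-identical myosin copies were shared out among these entries is not given in the sources used here.

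The flippase atp8b1, which moves phospholipids to the inner leaflet of the plasma membrane and whose human counterpart is mutated in an inherited liver cholestasis, rose to 14.9, 14.2 and 14.5 CPM in Afid low, against 8.14, 4.09, 6.79 and 5.78 CPM in Control (log2 fold change 1.23, SE 0.24). It averaged 14.5 ± 0.353 CPM in Afid low (SD, n = 3) and 6.198 ± 1.71 CPM in Control (SD, n = 4), without overlap. Of the 18 flippase genes and subunits tested, 14 had a higher value and 4 a lower one, with a median of 0.12 beside 0.0060 for all genes tested. That median was 0.071 without Control replicate 2 and 0.268 without Control replicate 4. The transporter abcc13, a member of the ABC family, had the largest fold change of the 15 genes, but on few reads: 18, 39 and 16 in Afid low and 2, 3, 2 and 3 in Control (log2 fold change 3.51, SE 0.59). The long intergenic RNA CT027638.1 was at 14.5, 7.63 and 11.5 CPM in Afid low and 3.28, 3.15, 2.67 and 5.71 CPM in Control (log2 fold change 1.59, SE 0.32). The protein-coding locus si:ch211-266g18.10 had 479, 181 and 398 reads in Afid low and 198, 134, 177 and 154 reads in Control (log2 fold change 1.43, SE 0.32). Afid low replicate 2 lay nearest to Control in both genes, and neither overlapped in CPM.

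**Figure D1:**
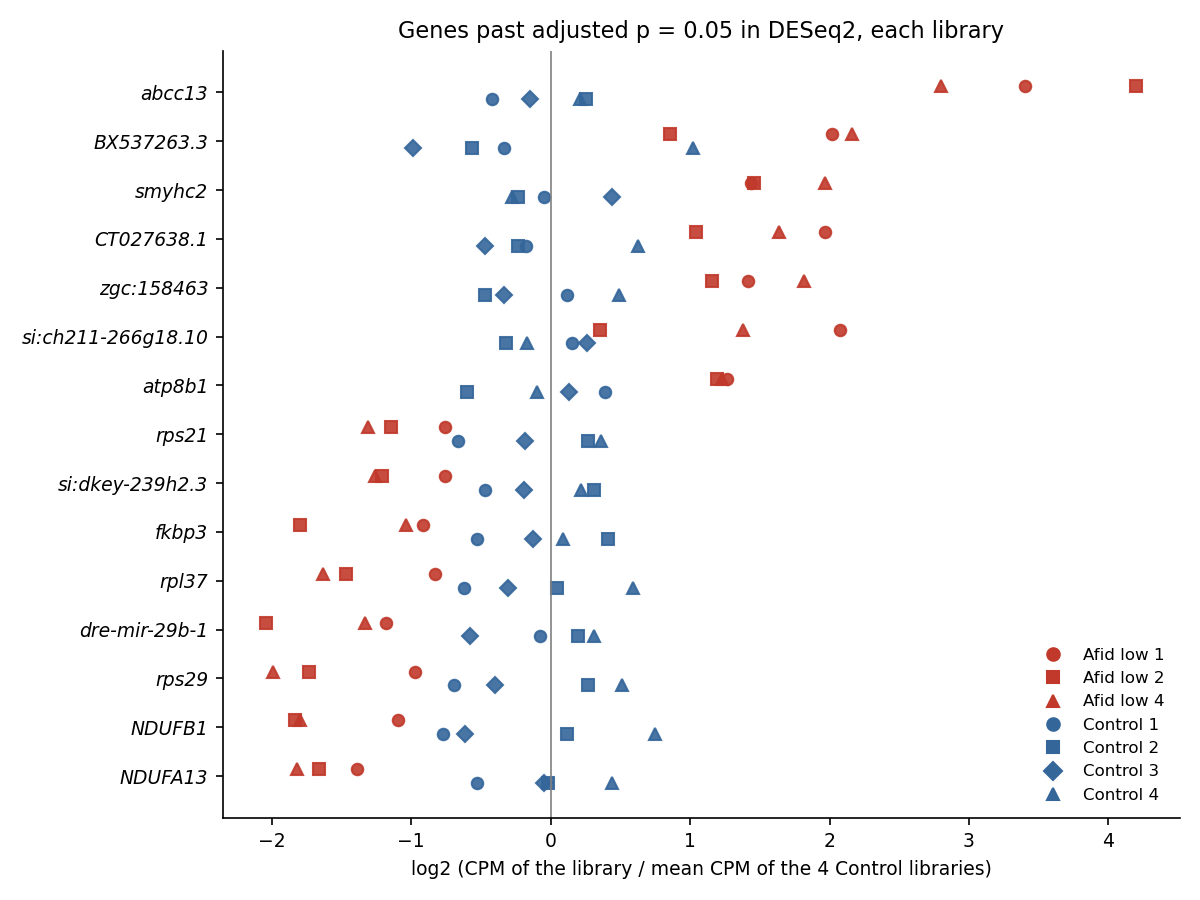
Level of the 15 genes past adjusted p = 0.05 in DESeq2 in each library, as log2 of CPM over the mean CPM of the 4 Control libraries (x axis); red marks are Afid low and blue marks Control, and the marker shape gives the replicate number. Afid low lies apart from Control in every gene drawn except BX537263.3, and Afid low replicate 1 (red circles) is the highest Afid low library in all 8 genes that fell.

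These calls depended on single libraries. Without Afid low replicate 4, DESeq2 called 0 genes, and edgeR called 0 as well, with 350 genes higher and 379 lower at an unadjusted p under 0.05. The genes zgc:158463 and NDUFA13 then came nearest, each at an adjusted p of 0.0531 by DESeq2. Without Afid low replicate 1, DESeq2 called 41 genes, 40 of them lower and 24 of them cytosolic ribosomal proteins. In that fit 4 of the 15 genes had an adjusted p, and all 4 were called. Without Control replicate 1 it called 60 genes, of which 12 were ribosomal proteins and 13 were among the 15, and without Control replicate 3 it called 8. Without Control replicate 4, the library richest in ribosomal protein reads, it called 24 genes, 19 higher and 5 lower. Ribosomal proteins were 3 of the 15 calls with all libraries, and 2 each without Control replicate 3 or Control replicate 4. They were 1 each without Afid low replicate 2 or Control replicate 2. In the fit without Control replicate 2, rps29 and rpl37 had DESeq2 adjusted p-values of 0.525 and 0.574. Over the 7 fits that each left out 1 library, zgc:158463 was called in 6 of 7 and rps29 in 5 of 7. NDUFA13 and smyhc2 were called in 5 of the 6 that gave them an adjusted p, and fkbp3, dre-mir-29b-1 and abcc13 in 1 each.

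**Figure D2:**
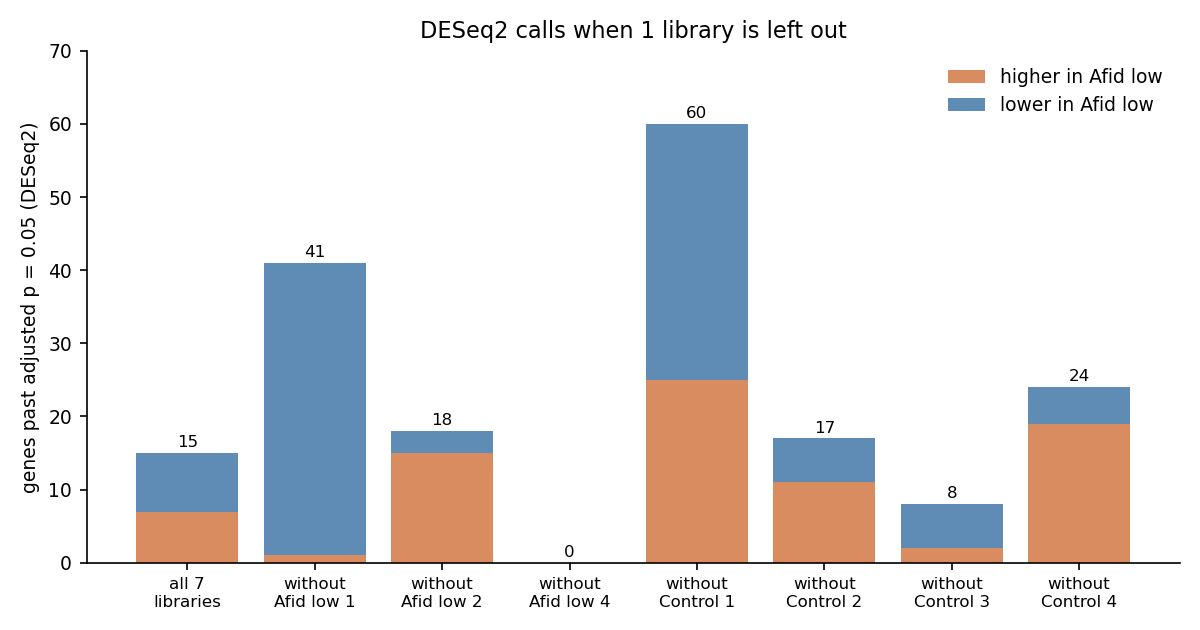
Number of genes past adjusted p = 0.05 in DESeq2 (y axis) with all 7 libraries and with each library left out in turn (x axis); orange parts are genes higher in Afid low and blue parts genes lower in Afid low. The count is 15 with all libraries and runs from 0 without Afid low replicate 4 to 60 without Control replicate 1.

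Cytosolic ribosomal proteins, the subunits of the ribosomes that translate messenger RNA, had lower values in Afid low as a list. Of 82 genes tested, 80 had a lower value and 2 a higher one, with a median log2 fold change of −0.58 beside 0.0060 for all 19399 genes tested. At an unadjusted p under 0.05, 28 of the 82 were lower and 0 higher in edgeR, beside 3.46% lower among all genes. Groups did not overlap in 6 of them (rps29, rpl37, rps21, rps28, rplp2l and rps4x), all lower, beside 4.29% of all genes that were lower without overlap. The pair with higher values, picked out after the values were seen, was rpl30 (0.24, SE 0.33) and rpl36a (0.09, SE 0.49).

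The level of the ribosomal list in each library was 0.08, −0.44 and −0.60 in Afid low and −0.20, 0.35, 0.01 and 0.83 in Control, as the median of log2 CPM centred on the 7 libraries. Afid low replicate 1 lay inside the range of Control, and Control replicates 2 and 4 lay above all other libraries. As a share of all reads in genes, ribosomal proteins took 9.09%, 7.18% and 6.54% in Afid low and 7.92%, 10.5%, 8.81% and 12.8% in Control. The median fold change was −0.80 without Afid low replicate 1, −0.32 without Control replicate 4 and −0.17 without Control replicates 2 and 4. The lowest value of the whole list was that of rpl38 (−1.53, SE 0.47), which is not among the 3 called genes. Its level was 122, 35.6 and 38.3 CPM in Afid low and 91.4, 278, 138 and 245 CPM in Control. Afid low replicate 1 thus lay above Control replicate 1.

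Nuclear genes of the respiratory chain varied with the ribosomal list library by library. The complex I list, drawn by gene symbol, had 35 of 36 genes tested with a lower value and a median of −0.46. At an unadjusted p under 0.05 in edgeR, 14 were lower and 0 higher, beside 3.46% lower and 3.59% higher among all genes. Complexes II to V had 50 of 50 with a lower value and a median of −0.53, with 19 lower and 0 higher at that threshold and beside the same shares. The complex I list stood at 0.11, −0.40 and −0.58 in Afid low and at −0.18, 0.28, 0.07 and 0.61 in Control, so Afid low replicate 1 was again inside the Control range. Its median was −0.73 without Afid low replicate 1, −0.31 without Control replicate 4 and −0.11 without Control replicates 2 and 4. For complexes II to V the median was −0.81 without Afid low replicate 1, −0.30 without Control replicate 4 and −0.21 without Control replicates 2 and 4. The entry of the complex I list with a higher value, picked out after the values were seen, was ndufa4 (1.35, SE 0.63). It was taken in by its symbol, and its place in complex I was not checked. Its level was 26.9, 7.47 and 1.69 CPM in Afid low and 3.72, 6.23, 3.28 and 5.39 CPM in Control. The higher value rests on Afid low replicate 1.

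Respiratory genes whose groups did not overlap were NDUFA13, NDUFB1, ndufa1, ndufa6, ndufb3 and ndufv3 of the complex I list. In the list of complexes II to V they were uqcrq, atp5if1a, cycsb, atp5l, cox6a2 and sdhb. All were lower, 6 of 36 and 6 of 50 genes tested, beside 4.29% of all genes lower without overlap. Among them ndufa6 was at 67.7, 62.2 and 50.2 CPM in Afid low and 76.8, 106, 83.2 and 145 CPM in Control (log2 fold change −0.78, SE 0.22). The ATP synthase inhibitor atp5if1a, which blocks ATP hydrolysis by the enzyme running in reverse, was at 19.3, 21.7 and 17.7 CPM in Afid low and 26.6, 39.6, 30.8 and 66.6 CPM in Control (−1.06, SE 0.28). Cytochrome c, the electron carrier encoded by cycsb, was at 73.6, 63.4 and 60.1 CPM in Afid low and 84.2, 107, 88.9 and 96.4 CPM in Control (−0.52, SE 0.15). The complex III subunit uqcrq had few reads, 20, 10 and 20 in Afid low and 149, 55, 30 and 107 in Control (−1.99, SE 0.52).

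The 13 protein-coding genes of the mitochondrial genome, whose products join the same complexes, had a median of −0.12, with 10 lower and 3 higher values. Their groups overlapped in every gene. The complex I gene mt-nd3 was at 402, 310 and 254 CPM in Afid low and 357, 510, 466 and 636 CPM in Control, a log2 fold change of −0.61. The most abundant of them by reads, mt-co1, had −0.04. The median of the 13 genes was 0.0078 without Afid low replicate 4. Mitochondrial ribosomal proteins had a median of −0.31 (57 of 66 lower) and of −0.0442 without Control replicates 2 and 4. At an unadjusted p under 0.05 in edgeR, 5 were lower and 0 higher, beside 3.46% lower among all genes. Among these mrps5 was at 3.96, 3.74 and 3.38 CPM in Afid low and 9.84, 9.32, 5.03 and 5.91 CPM in Control (−1.03, SE 0.31). The list of Sm and LSm proteins, RNA-binding factors of splicing and RNA decay, also took in genes of like symbol such as snrpc. It had a median of −0.42 (16 of 18 lower), of −0.206 without Afid low replicate 4 and of −0.179 without Control replicates 2 and 4.

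Other small or highly expressed housekeeping sets had lower medians as well. Translation factors had a median of −0.18 (46 of 64 lower), led by the initiation factor eif3k at 76.1, 84.7 and 79.4 CPM in Afid low and 96.8, 148, 116 and 132 CPM in Control (−0.62, SE 0.17). Proteasome subunits had a median of −0.14 (33 of 44 lower), the proton pump V-ATPase −0.23 (15 of 19 lower), glycolysis −0.22 (27 of 33 lower) and chaperones −0.09 (52 of 84 lower). Antioxidant defence genes had −0.11 (33 of 42 lower). These medians depended on single libraries. Without Control replicate 4 the median was −0.093 for translation factors, −0.104 for glycolysis, −0.0372 for chaperones and −0.0183 for antioxidant defence, and without Control replicate 2 it was −0.0971 for the V-ATPase and −0.078 for the proteasome. Without Afid low replicate 1 it was −0.330 for the proteasome and −0.297 for antioxidant defence. The proteasome median turned positive, to 0.0234, without Control replicates 2 and 4. Further mitochondrial genes were among those of smallest p-value. The copper chaperone of cytochrome oxidase, cox17, was at 13.1, 9.78 and 11.7 CPM in Afid low and 18.8, 25.7, 15.8 and 27.2 CPM in Control (−0.93). The crista protein chchd6b was at 14.2, 20.5 and 19.96 CPM in Afid low and 28.5, 31.2, 29.96 and 34.1 CPM in Control (−0.76). The mitochondrial chaperone trap1 was at 5.05, 2.30 and 3.67 CPM in Afid low and 9.28, 8.24, 6.79 and 11.4 CPM in Control (−1.29). All 3 were lower without overlap, and none passed the adjusted threshold.

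**Figure D3:**
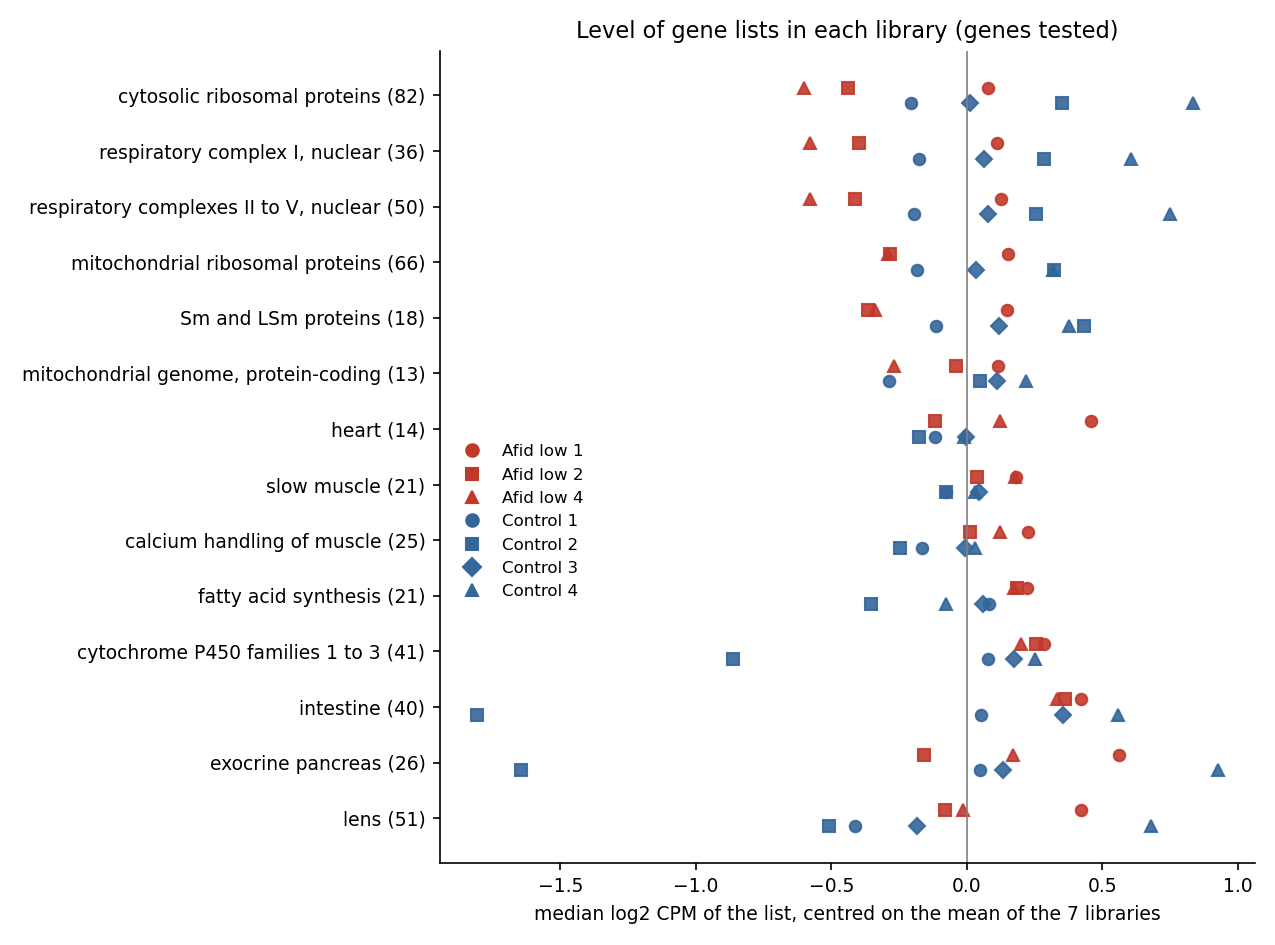
Level of 14 gene lists in each library, as the median over the list of log2 CPM centred on the mean of the 7 libraries (x axis); red marks are Afid low, blue marks Control, and the marker shape gives the replicate number. In the cytosolic ribosomal and nuclear respiratory lists Afid low replicates 2 and 4 lie lowest and Control replicate 4 lies highest. In the P450, intestine and pancreas lists Control replicate 2 lies far below the other libraries.

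Median fold changes varied with the length of the gene model, but not in step at the short end. The median log2 fold change was −0.0156 for 239 genes under 400 bases, −0.0939 for 320 genes of 400 to 600 bases and −0.15 for 518 genes of 600 to 800 bases. From there it was higher in each longer bin, up to 0.07 for 3242 genes of 5000 bases or more, where 36.98% had a lower value. NDUFA13, NDUFB1, rps29 and dre-mir-29b-1 lie in the bin under 400 bases, where 50.63% of genes had a lower value. Of the genes at an unadjusted p under 0.05 in edgeR, the lower ones had a median length of 1605 bases and the higher ones 2887 bases, beside 2451 bases for all genes tested. The 8 genes that fell by DESeq2 had a median of 507.5 bases. The trend was not shared by all libraries of a group: genes of 600 to 800 bases stood at 0.14, −0.13 and −0.09 in Afid low and at −0.11, 0.13, 0.03 and 0.30 in Control. With the trend of fold change with length removed, the median was −0.52 for cytosolic ribosomal proteins, −0.35 for complex I, −0.44 for complexes II to V, −0.24 for mitochondrial ribosomal proteins and 0.0021 for the mitochondrial genome.

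**Figure D4:**
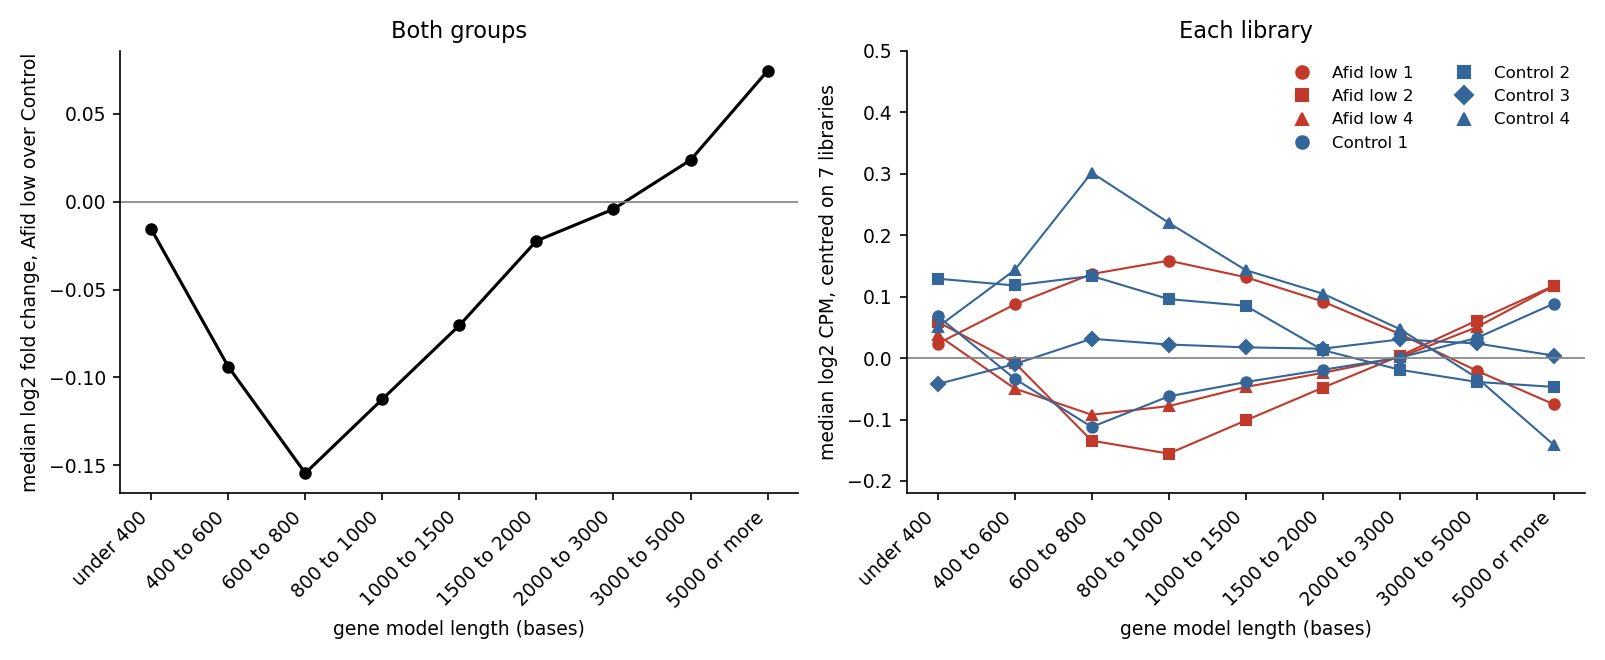
Median log2 fold change of Afid low over Control by length of the gene model (left) and median centred log2 CPM of the same genes in each library (right), with red lines for Afid low and blue lines for Control. Genes of 600 to 800 bases have the lowest median fold change, −0.15, and Afid low replicate 1 and Control replicate 4 run opposite to Afid low replicates 2 and 4.

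The genes most like NDUFA13 over the 15 libraries with counts, AVS included, were NDUFB1 (Pearson r = 0.918), rps29 (0.912), atp5if1a (0.905), rps21 (0.903), rpl37 (0.897), CABZ01078593.1 (0.892), ndufa3 (0.889) and spink4 (0.883), on log2 CPM. These values describe libraries that differ in group, depth and RNA composition. In the AVS high libraries NDUFA13 ran from 5.74 to 14.7 CPM and in AVS low from 8.25 to 24.7 CPM, beside 5.38 to 7.24 CPM in Afid low and 13.2 to 25.6 CPM in Control on the same scale. The entry zgc:158463 ran from 236 to 336 CPM in AVS high and 72.0 to 241 CPM in AVS low, beside 247 to 389 CPM in Afid low and 80.8 to 154 CPM in Control.

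Genes of muscle contraction were among those with higher values. The L-type calcium channel of skeletal muscle, cacna1sa, which senses voltage for calcium release, was at 20.2, 19.2 and 23.4 CPM in Afid low and 12.5, 9.52, 13.7 and 14.2 CPM in Control (0.75, SE 0.19). Its paralog cacna1sb was at 104, 101 and 101 CPM in Afid low and 76.7, 63.4, 86.2 and 79.9 CPM in Control (0.41, SE 0.15). Triadin, encoded by trdn, which links the calcium release channel to its calcium store, was at 16.7, 9.70 and 12.1 CPM in Afid low and 8.64, 4.69, 8.16 and 6.11 CPM in Control (0.89, SE 0.27). The groups lay apart in all 3 genes, and none of them passed the adjusted threshold. Of the 25 calcium-handling genes tested, 6 were higher and 1 lower at an unadjusted p under 0.05 in edgeR, beside 3.59% higher and 3.46% lower among all genes. Of the 25, 17 had a higher value and 8 a lower one, with a median of 0.16, or 0.0936 after correction for the length trend. The 6 higher ones at that threshold were long (3186 to 16422 bases). The lower one was the 1181-base pvalb2, a calcium buffer at under 3 CPM in every library. The far more abundant pvalb1 and pvalb4 of the same family also had lower values, −0.55 and −0.43, with overlapping groups.

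Some myosin heavy chains, the motor proteins of muscle, had higher values too. The heart list had 11 of 14 genes higher and a median of 0.42. Its atrial myosin myh6 was at 13.6, 9.38 and 12.1 CPM in Afid low and 5.99, 3.08, 7.47 and 3.38 CPM in Control (1.23, SE 0.32). The myosin myh7l was at 49.8, 33.6 and 46.5 CPM in Afid low and 32.8, 27.8, 20.8 and 23.2 CPM in Control (0.73, SE 0.20). Both lay apart between the groups, while the light chains myl7 and cmlc1 had −0.20 and −0.75 with overlap. The median of the heart list was 0.18 without Afid low replicate 1, 0.65 without Afid low replicate 2 and 0.23 without Afid low replicate 4. The 33 fast muscle genes had 13 higher and 20 lower values and a median of −0.10, and their myosin myhb was at 191, 113 and 203 CPM in Afid low and 107, 51.7, 102 and 51.2 CPM in Control (1.12, SE 0.29). The fast muscle median was 0.0671 without Control replicates 2 and 4. The slow muscle list had a median of 0.18 (12 of 21 higher) and 0.101 without Afid low replicate 2.

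Lens genes had a median of 0.12 (33 of 51 higher), with 8 higher and 0 lower at an unadjusted p under 0.05 in edgeR, beside 3.59% higher among all genes. In 7 of them the Afid low libraries all lay above Control, beside 4.56% of all genes. The beaded-filament proteins of lens fibre cells were among them. The first, bfsp2, was at 114, 106 and 121 CPM in Afid low and 66.9, 32.9, 68.0 and 82.3 CPM in Control (0.86, SE 0.25). The second, BFSP1, was at 40.7, 34.8 and 60.7 CPM in Afid low and 17.9, 0.469, 15.3 and 15.9 CPM in Control (1.88, SE 0.63). The crystallin crygm2d12 was at 21.3, 14.5 and 18.7 CPM in Afid low and 6.69, 4.76, 12.1 and 13.3 CPM in Control (0.98, SE 0.32). These genes were picked from the higher side of the list. It also held 18 genes with a lower value, down to −0.84. As a list the lens stood at 0.42, −0.08 and −0.01 in Afid low and −0.41, −0.51, −0.18 and 0.68 in Control. Its median was −0.08 without Afid low replicate 1, 0.51 without Control replicate 4 and 0.0159 without Control replicate 2. Its direction was thus lost without Afid low replicate 1.

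Values of digestive and drug-metabolising genes depended on Control replicates 2 and 4. The intestine list had a median of 0.32 (33 of 40 higher) with all libraries and 0.011 without Control replicate 2. That library stood at −1.81 on the list, beside 0.42, 0.36 and 0.33 in Afid low and 0.05, 0.36 and 0.56 in the other Control libraries. Cytochrome P450 families 1 to 3, enzymes that oxidise drugs and other foreign compounds, had a median of 0.27 (35 of 41 higher) with all libraries and 0.07 without Control replicate 2. Among them cyp2ae1 was at 5.64, 5.41 and 4.84 CPM in Afid low and 3.79, 1.48, 1.60 and 4.03 CPM in Control. It and cyp2p9 were higher without overlap, and cyp2k20 and cyp2ad3 were lower without overlap. These counts, 2 of 41 each way, are near the 4.56% higher and 4.29% lower without overlap among all genes. The intestine median was 0.503 without Control replicate 4. Exocrine pancreas genes had a median of 0.09 with all libraries, −0.24 without Control replicate 2 and 0.573 without Control replicate 4, so their direction was not stable. The mucin muc13a, a membrane mucin of epithelia, was higher without overlap, at 6.73, 3.66 and 5.58 CPM in Afid low and 1.07, 1.48, 1.98 and 2.53 CPM in Control (1.59, SE 0.38).

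Fatty acid synthesis genes had a median of 0.28 (16 of 21 higher), with 5 higher and 0 lower at an unadjusted p under 0.05 in edgeR, beside 3.59% higher among all genes. Their median was 0.16 without Control replicate 2 and 0.0952 without Control replicates 2 and 4. The elongase elovl6l was at 28.5, 21.5 and 26.4 CPM in Afid low and 17.9, 16.8, 17.5 and 18.8 CPM in Control (0.52, SE 0.16). The stearoyl-CoA desaturase scd was at 3.47, 6.92 and 3.38 CPM in Afid low and 3.15, 2.35, 2.44 and 1.36 CPM in Control (0.98, SE 0.39). Neither gene overlapped between the groups. The lipogenic transcription factor srebf1, whose groups overlapped, was at 92.7, 140 and 147 CPM in Afid low and 112, 57.4, 92.2 and 82.9 CPM in Control (0.56, SE 0.23). Sterol synthesis had a median of −0.03, with 11 genes higher and 11 lower and 0 genes at an unadjusted p under 0.05 in edgeR.

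TRP channels, the gene family of the insect target, had a median of 0.13 (19 of 29 tested higher) and of 0.061 without Control replicate 4. The 1 gene at an unadjusted p under 0.05 in edgeR was trpm4b.2, a share (3.45%) near the 3.59% higher among all genes. That sodium-conducting channel was at 19.8, 21.4 and 22.4 CPM in Afid low and 17.5, 7.17, 13.4 and 16.2 CPM in Control (0.64, SE 0.26). The heat-gated trpv1 was at 4.95, 4.53 and 4.92 CPM in Afid low and 3.91, 4.16, 3.74 and 5.46 CPM in Control (0.15, SE 0.27). The osmosensitive trpv4 was at 2.87, 3.34 and 3.82 CPM in Afid low and 1.96, 2.41, 1.83 and 3.77 CPM in Control (0.42, SE 0.36). The epithelial calcium channel trpv6 was at 5.64, 2.46 and 3.45 CPM in Afid low and 3.09, 1.81, 3.51 and 3.31 CPM in Control (0.39, SE 0.38). The irritant sensor trpa1a was at 24.4, 15.7 and 18.9 CPM in Afid low and 15.9, 25.6, 21.7 and 19.3 CPM in Control, with a log2 fold change of −0.07 (SE 0.21), and its paralog trpa1b had −0.13 (SE 0.27). The groups overlapped in all 5 TRPV and TRPA1 genes, and no difference was detectable with this number of libraries. Hair cell genes, which mark sensory cells of the ear and lateral line, had a median of 0.06 (14 of 24 higher) and 0.0013 without Afid low replicate 4. Of them, 0 were at an unadjusted p under 0.05 in edgeR.

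Some genes of the stress axis, in which the brain drives cortisol release, were among those with lower values. Corticotropin-releasing hormone, encoded by crhb, which starts the axis in the brain, was at 7.63, 3.42 and 4.92 CPM in Afid low and 8.77, 15.3, 10.6 and 9.09 CPM in Control (−1.05, SE 0.31). Its binding protein crhbp was at 34.0, 36.0 and 29.7 CPM in Afid low and 39.8, 58.4, 46.0 and 50.8 CPM in Control (−0.55, SE 0.17). The gene star, whose product carries cholesterol into mitochondria for steroid synthesis, was at 4.75, 3.50 and 3.60 CPM in Afid low and 5.11, 6.90, 7.09 and 9.48 CPM in Control (−0.86, SE 0.29). The groups lay apart in all 3, with unadjusted p-values of 0.00600, 0.00702 and 0.0121 in edgeR, and none passed after adjustment. The 3 were picked as the genes of smallest p-value among the 14 of the axis tested. At an unadjusted p under 0.05 in edgeR, 3 of the 14 were lower, beside 3.46% of all genes. As many were lower without overlap, beside 4.29% of all genes. Of the 14, 7 had a higher value and 7 a lower one, from −1.05 to 1.07, with a median of −0.048. That median was 0.014 without Afid low replicate 1. The cortisol targets fkbp5, tsc22d3, per1a and klf9 had −0.19, −0.10, 0.04 and 5.4e-05. Immediate early genes, which neurons switch on with activity, had a median of −0.17 (15 of 21 lower), with jun at 80.7, 83.0 and 82.6 CPM in Afid low and 97.1, 112, 99.5 and 108 CPM in Control (−0.34, SE 0.14).

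Photoreceptor and nervous system lists had lower medians, −0.15 for photoreceptors (42 of 55 lower), −0.14 for neurons (25 of 31 lower) and −0.16 for glia and myelin (15 of 19 lower). Control replicate 2 was the highest of the 7 libraries on all 3 lists, at 0.33, 0.37 and 0.36, and without it the medians were −0.07, −0.04 and −0.06. Without Control replicates 2 and 4 the direction was lost for photoreceptors, at 0.0135, and for glia and myelin, at 0.0234, and the neuron median was −0.0811. The cone phosphodiesterase subunit pde6ha was at 382, 303 and 240 CPM in Afid low and 421, 798, 475 and 630 CPM in Control (−0.91, SE 0.25). The cone cyclic-nucleotide-gated channel subunit cnga3b had higher values without overlap, at 22.6, 21.2 and 24.5 CPM in Afid low and 18.4, 13.2, 18.2 and 13.8 CPM in Control (0.52, SE 0.18). The growth-cone protein gap43 was at 16.2, 17.2 and 17.3 CPM in Afid low and 21.7, 36.5, 21.2 and 22.3 CPM in Control (−0.59, SE 0.22).

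The remaining genes of smallest p-value were spread over functions. The kinase scaffold akap12a was higher, at 23.6, 20.3 and 26.9 CPM in Afid low and 13.7, 11.4, 14.3 and 10.4 CPM in Control (0.92, SE 0.19). Periaxin, encoded by prx and known in mammals as a protein of myelinating Schwann cells, was at 232, 140 and 197 CPM in Afid low and 132, 94.7, 106 and 79.95 CPM in Control (0.88, SE 0.21). The sodium-calcium exchanger slc8a2a rested on few reads, 16, 20 and 52 in Afid low and 10, 0, 2 and 1 in Control. Also higher without overlap were the centriole protein poc1bl (0.89), mesothelin mslna (1.14), the myocardin-related factor mkl2a (1.05) and the ribosome production factor rpf1 (1.70). The tetraspan protein lhfpl2a was lower, at 2.87, 2.38 and 2.57 CPM in Afid low and 5.68, 5.90, 5.64 and 6.56 CPM in Control (−1.19, SE 0.27). So was ppdpfa, at 87.7, 87.8 and 70.5 CPM in Afid low and 110, 156, 111 and 164 CPM in Control (−0.72, SE 0.19). None of these 9 passed the adjusted threshold in DESeq2, the nearest being akap12a at an adjusted p of 0.0574.

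The authors compared Afid high with the same Control libraries, so both doses share their controls and their values are given side by side only. In the authors' deposited tables, NDUFA13 had a log2 fold change of −1.63 at the low dose and −1.40 at the high dose. For rps29 the authors' deposited tables give −1.51 at the low dose and −1.07 at the high dose, and for NDUFB1 −1.55 at the low dose and −1.11 at the high dose. Among the genes that rose, the authors' deposited tables give zgc:158463 a log2 fold change of 1.48 at the low dose and 1.68 at the high dose. The authors' deposited tables also give atp8b1 1.21 at the low dose and 1.14 at the high dose, and abcc13 3.57 at the low dose and 2.31 at the high dose. For crhbp the authors' deposited tables give −0.57 at the low dose and −0.54 at the high dose, and for crhb −1.06 at the low dose and −0.58 at the high dose. Every gene given so far in this paragraph except zgc:158463 had a fold change of smaller size at the high dose. So did other genes named above. In the authors' deposited tables rpf1 had 1.69 at the low dose and 0.34 at the high dose, and slc8a2a 3.43 and 1.20. The authors' deposited tables give cnga3b 0.50 at the low dose and 0.11 at the high dose, and fkbp3 −1.22 and −0.64. Of the genes in this paragraph, only rps29 and zgc:158463 have an adjusted p in the high-dose table. In the authors' deposited tables rps29 was called at both doses, at a DESeq2 adjusted p of 0.00242 (low) and 0.0374 (high). For zgc:158463 the DESeq2 adjusted p-values were 4.11e-05 (low) and 0.135 (high). Whether the others passed at the high dose cannot be read. The high-dose table gives no adjusted p for most genes.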

How the data were processed

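RNA from zebrafish larvae was extracted with TRIzol, poly(A)-selected and sequenced from directional libraries, per the labels' protocols. The authors deposited raw read counts and FPKM per gene for these libraries; the tools named in the submitters' processing notes are fastp, HISAT2, featureCounts and DESeq2, and no version, genome build or strand option is given in the sources used here. The deposited table also holds the authors' log2 fold changes and p-values; an adjusted p written as 1 (21.4% of genes in the table of the low dose, 89.2% in that of the high dose) was read as not given. It lists 25686 genes. Control counts were identical in all 3 count tables used, and 39 other per-sample columns were left out. Reads in genes ran from 10.2 to 18.6 M per library, and precision is limited by 3 and 4 libraries per group.

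Counts of the 7 libraries were tested with edgeR 4.0.16 in R 4.3.3 (TMM scaling, filterByExpr, quasi-likelihood test, two-sided, Benjamini-Hochberg adjusted p under 0.05), and with DESeq2 1.42.0, whose calls are given beside edgeR's; list counts and SEs are edgeR's alone. Limma 3.58.1 (voom), other scalings and filters, a replicate block, all 15 libraries with counts and leaving out libraries were alternatives. Each SE was obtained from the fold change and edgeR's F statistic (absolute log2 fold change over root F). Log2 CPM used a prior count of 2, and the trend with length a lowess over a fraction of 0.3. The fits were tested on simulated data. There edgeR recovered 38% of 50 genes raised 2-fold and 28% of 50 genes set to 0.5-fold, and DESeq2 56% of each. At 4-fold both recovered 100%, and at 0.25-fold edgeR recovered 96% and DESeq2 98%. The changed genes were drawn from those with a mean above 50 reads, so these shares do not cover genes of few reads. The simulated libraries held no shifts shared by many genes, such as those of Control replicates 2 and 4.

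The comparison, the 47 gene lists (1508 members tested) and the tests were chosen with earlier results of these data known, and symbol patterns were narrowed after matching, so no list was tested as a set. Genes were named where called by either tool, where among the 12 of smallest edgeR p in each direction with a symbol, a mean of 20 reads or more in 1 group and no overlap, where among the 3 of smallest p in a list, or as TRPV and TRPA1 channels. Others were named as related to these, and such choices were made after values were seen.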

Additional observations from a re-analysis of the deposited data

Results flagged for a closer look

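In 3 gene lists, 1 Control library lay far from the other Control libraries on the list's level, the median log2 CPM centred on all 7 libraries. That library was Control replicate 2, at −0.862 on cytochrome P450 families 1 to 3, −0.843 on the liver list and −0.4 on sterol synthesis, the lowest Control value each time. These are 3 of 80 values checked over groups of 4 libraries, and chance gives about 1 in 20. The 3 Afid low libraries are too few for this check.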

How the results depend on the processing

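The count of genes past adjusted p = 0.05 was 0 in edgeR and also 0 with RLE scaling, no filter, limma-voom, all 15 libraries in 1 fit or the replicate block. It was 15 by DESeq2 and 1 without Control replicates 2 and 4 (FO704772.2, log2 fold change 1.72, edgeR adjusted p = 0.0398). With 1 library left out it ran from 0 to 1, the 1 call being FO704772.2 again, without Control replicate 4. The DESeq2 count of 15 was 14 with TMM scaling, 16 over the genes kept by filterByExpr and 21 without Control replicates 2 and 4. With 1 library left out it ran from 0 without Afid low replicate 4 to 60 without Control replicate 1, and was 41 without Afid low replicate 1, 8 without Control replicate 3 and 24 without Control replicate 4. The cause of these moves was not tested.

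Genes at an unadjusted p under 0.05 in edgeR, 697 higher and 671 lower, came to 423 higher with all 15 libraries in 1 fit, and to 278 lower without Control replicates 2 and 4. With 1 library left out they ran from 350 to 1057 higher and from 379 to 960 lower. Same-numbered libraries of both groups did not deviate together (correlations −0.209, 0.0253 and −0.112 over 3 pairs), so the labels' numbers were not taken as pairs. A fit with replicate block gave 347 lower genes at an unadjusted p under 0.05 and 11 calls in DESeq2, 5 of them among the 15.

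With RLE scaling the median log2 fold change of all genes was −0.007, beside 0.0060 with TMM scaling. Of 163 named genes under 2278 settings in all, 4 values changed sign. Those were the sterol synthesis gene msmo1, at 0.59 and from −0.0698 to 0.908 with 1 library left out, and trpa1a, at −0.07 and from −0.258 to 0.0640 with 1 library left out, 0.0473 without Control replicate 2 and 0.0660 without Control replicates 2 and 4. List medians moved by more than the SD of the list's level over the 4 Control libraries in 14 of 517 settings. A list whose Control libraries lay far apart could thus shift widely without being counted. Cytosolic ribosomal proteins were not counted, though their median went from −0.58 to −0.17 without Control replicates 2 and 4. The sign of the median changed in 7 settings for myeloid and lymphoid immune genes. It changed in 5 each for erythroid and sterol synthesis genes, 4 for skin and 0 for cytosolic ribosomal proteins. Without Control replicates 2 and 4 the medians counted as moved were −0.0442 for mitochondrial ribosomal proteins, −0.106 for complex I, −0.00827 for chaperones, 0.0748 for slow muscle and 0.268 for heart. With 1 library left out, proteasome subunits moved to −0.330 and circadian clock genes to 0.136 (both without Afid low replicate 1), and the V-ATPase to −0.0971 (without Control replicate 2). Slow muscle then ran from 0.101 to 0.110 in its 3 moved values, and heart from 0.177 to 0.653. At this depth genes of a few reads, such as abcc13, rest on counting error as well as on the spread between libraries.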
